A study of Homo sapiens with 12 samples.

Results

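The genes described here are the expressed long noncoding RNA genes of Raji cells that carry a systematic LINC name. They were chosen by their symbol and their measured level: the symbol had to be LINC followed by digits alone, and the mean CPM (a gene's counts scaled to a fixed library total) over all 12 libraries had to reach 0.5. Of 2271 genes with such a symbol in the count table of 60707 genes, 1009 had no count in any library, 1262 had at least 1, and 236 met both criteria. These 236 carry 235 different symbols, because LINC01238 stands for 2 gene records. All 236 also passed the low-count filter of the test, which kept 17859 genes. The level entered the choice, so the levels themselves are given as a description. Just inside the floor lay LINC01297 at 0.500009 CPM, LINC01396 at 0.501 and LINC02542 at 0.502, and just outside lay LINC02422 at 0.499896, LINC01635 at 0.483 and LINC02154 at 0.482.

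A LINC symbol is given by the human gene nomenclature committee to a long RNA without a known protein that lies between protein-coding genes and has no better name. Such RNAs are transcribed by RNA polymerase II, often from enhancers or from promoters shared with a coding gene. They are commonly spliced inefficiently, kept in the nucleus and degraded by the RNA exosome, and their levels differ more between cell types than those of coding genes. Some act on transcription near their own locus, but most have no assigned function.

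Raji is an established cell line from a human Burkitt lymphoma, a tumour of germinal centre B cells. The line carried an auxin-inducible degron for SMARCA4 (BRG1), the ATPase of the SWI/SNF chromatin remodeller. A degron marks a tagged protein for destruction when auxin is given. The 4 groups were GFP-high cells with the vehicle DMSO, GFP-high cells with FX1, GFP-low cells with DMSO and GFP-low cells with FX1, each with 3 libraries made at 24 h. FX1 is a small molecule that blocks the BTB domain of BCL6, the transcriptional repressor of germinal centre B cells. The genotype label was Smarca4+/+ in all groups. The labels leave unsaid which cells received auxin and what the GFP gate says about SMARCA4 protein, so the groups are called by gate and treatment. Whether the 3 libraries of each group stem from independent cultures is not given. The p-values then rest on library-to-library spread alone, some of which can be technical.

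Total counts per library lay between 20454028 and 42556661. SMARCA4 RNA had group means of 381 to 456 CPM, which says nothing of the protein that a degron removes. Summed B-cell markers lay at 3575 to 3583 CPM in GFP-high DMSO, 2694 to 2710 in GFP-high FX1, 3012 to 3023 in GFP-low DMSO and 2115 to 2123 in GFP-low FX1, and all 10 passed the low-count filter. The 9 T and NK markers summed to 22.8 to 23.5 CPM, 7.92 to 8.18, 15.6 to 17.7 and 4.77 to 6.93 in the same order. The 8 myeloid markers summed to at most 6.46 CPM and the 6 epithelial and stromal markers to at most 17.8 CPM, both in GFP-low FX1, and S100A8 and KRT18 were at 0 everywhere. The part of these markers in the results on the LINC genes was not tested.

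The LINC genes together took 0.158% of all counts in each GFP-high DMSO library, 0.150% in each GFP-high FX1 library, 0.181% to 0.182% in GFP-low DMSO and 0.166% to 0.169% in GFP-low FX1. The 4 groups did not overlap in this share. The median LINC gene had 2.72 CPM against 10.3 for all tested genes, and 41 of the 236 reached 10 CPM while 56 lay under 1. Apart from the mean used for the level floor, CPM values in this text are scaled by TMM, the trimmed mean of M values, which corrects the library totals. The 10 most abundant by CPM took 34.5% of the members' summed CPM. In bulk RNA, fewer cells that express a gene and less RNA per cell cannot be told apart.

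Levels can be compared between genes only per exon length. On that scale, CPM per kb of exon averaged over the 12 libraries, LINC01589 led with 22.9, followed by LINC02137 with 17.97, LINC03034 with 17.4, LINC01399 with 17.3, LINC00641 with 15.7 and LINC00926 with 14.1. LINC00698, LINC03040, LINC01694 and LINC01318 completed the 10 highest, between 11.8 and 10.9 CPM per kb. The median over the 236 was 0.855. LINC00926 is a transcript often listed among B-cell markers. LINC03040 was annotated as protein-coding in GENCODE release 29 and shares 263 exonic bases with SCIRT on the other strand. LINC01399 was annotated there as a transcribed processed pseudogene.

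Of the 10, 8 were called with FX1 in GFP-high cells and 9 in GFP-low cells. Over all tested genes, 33.8% were called higher and 34.6% lower in GFP-high cells, and 33.7% and 34.3% in GFP-low cells. These 10 are well-counted genes, so the counts are given as a description. LINC03040 measured 105.1, 99.3 and 101.2 CPM in GFP-high DMSO, 18.7, 18.6 and 18.8 in GFP-high FX1, 112.0, 113.4 and 106.9 in GFP-low DMSO and 29.5, 28.7 and 28.5 in GFP-low FX1. Every FX1 library lay below every DMSO library. The log2 fold change with FX1, ± its standard error, with p adjusted over all tested genes by edgeR's quasi-likelihood test, was -2.44 ± 0.04, adjusted p = 4.48e-146 in GFP-high and -1.93 ± 0.04, adjusted p = 3.84e-132 in GFP-low cells. LINC01694 went the other way, from 56.99, 55.4 and 56.2 CPM in GFP-high DMSO to 107.3, 104.7 and 109.4 with FX1, and from 54.4, 54.9 and 52.2 to 115.4, 112.6 and 114.5 in GFP-low cells. Both FX1 groups lay wholly above both DMSO groups (7.71% of its exonic bases are shared with a gene on the other strand), with log2 fold changes of 0.93 ± 0.03 and 1.08 ± 0.03 (adjusted p = 2.76e-80 and 1.63e-93). LINC00641, which lies 2236 bases from HNRNPC in no annotated overlap, had means of 71.1 ± 1.96 and 106.5 ± 0.870 CPM in GFP-high DMSO and FX1 and 72.8 ± 2.28 and 109.1 ± 1.23 in GFP-low (SD, n = 3). Its log2 fold change was the same to 2 decimals in both gates, 0.58 ± 0.03 and 0.58 ± 0.03.

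LINC03034 measured 38.9, 35.9 and 36.3 CPM in GFP-high DMSO against 18.7, 19.6 and 17.1 with FX1, and 34.8, 38.4 and 34.9 against 16.5, 18.3 and 16.6 in GFP-low cells. It fell in both gates without overlap, with log2 changes of -1.002 ± 0.06 and -1.08 ± 0.06. LINC00926 fell by smaller steps, 0.48 ± 0.04 and 0.59 ± 0.04, and LINC00698 by -0.83 ± 0.05 and -0.63 ± 0.05 on the log2 scale. LINC02137 rose to 38.8 ± 0.587 CPM in GFP-low DMSO from 29.1 ± 0.676 in GFP-high DMSO (log2 0.41 ± 0.05, adjusted p = 7.33e-14), and with FX1 both gates were near that lower level, at 30.7 ± 1.03 and 29.02 ± 1.004. LINC01589, the highest per kb, was at 14.1 ± 0.740, 12.4 ± 0.438, 13.6 ± 0.622 and 10.3 ± 0.485 CPM in the 4 groups in the order above, and fell with FX1 by log2 0.19 ± 0.08 and 0.39 ± 0.08.

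The FX1 comparison asks how blocking BCL6 acts in each gate. In GFP-high cells, 60 of 236 LINC genes were called higher and 105 lower (25.4% and 44.5%) at a Benjamini-Hochberg adjusted p under 0.05 over all tested genes. Over all genes, 33.8% were called higher and 34.6% lower. Among the 15345 tested genes with a mean of at least 0.5 CPM, the level asked of the members, the shares were 37.1% and 36.1%. In GFP-low cells they were 36.7% and 36.5%. In GFP-low cells, 59 LINC genes were called higher and 101 lower (25% and 42.8%), against 33.7% and 34.3% of all genes. The median log2 fold change of the LINC genes was -0.22 in GFP-high and -0.27 in GFP-low cells, against -0.01 over all tested genes in both. The 2870 other tested long noncoding genes had shares of 19.1% higher and 39.6% lower with a median of -0.31 in GFP-high, and 19.3% and 34.7% with a median of -0.19 in GFP-low. They did not have to reach 0.5 CPM, and fewer counts give fewer calls. Protein-coding genes had 41.4% higher and 35.4% lower in GFP-high, and 41.1% and 37.4% in GFP-low. An excess of lower over higher calls was thus seen in other long noncoding genes too.

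**Figure D1:**
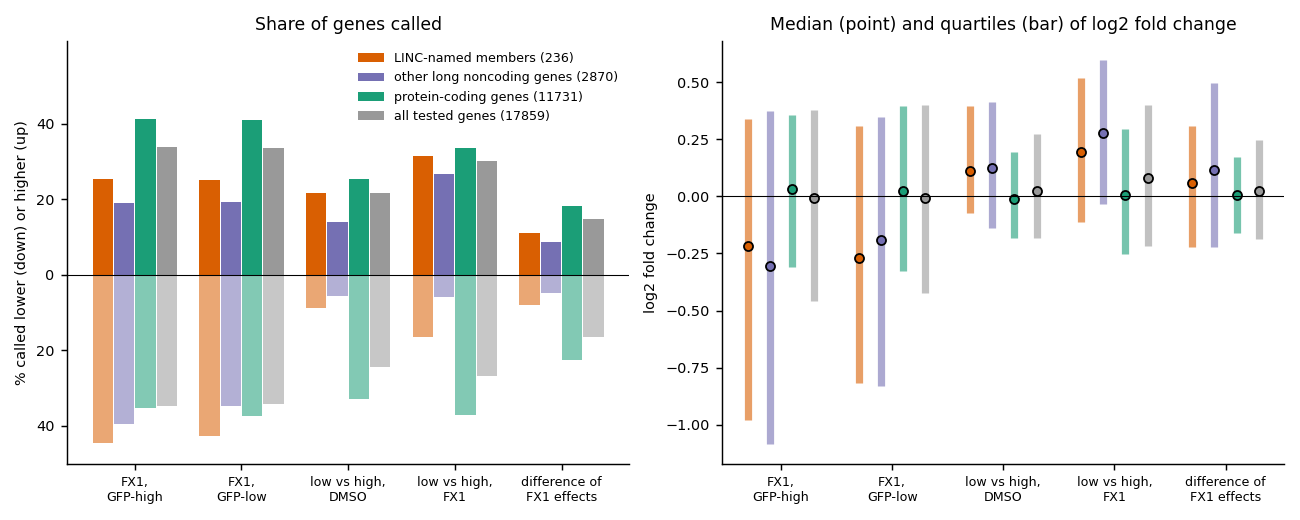
Left, percent of genes called higher (upward bars) and lower (downward bars, paler) at adjusted p under 0.05 in the 5 comparisons, for the 236 LINC-named genes, other long noncoding genes, protein-coding genes and all tested genes; right, the median (point) and quartiles (bar) of the log2 fold change in the same sets. Under FX1, 44.5% and 42.8% of the LINC-named genes were called lower in the 2 gates, above the 34.6% and 34.3% of all genes.

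Large changes leaned further down. At 2-fold or more, 20 LINC genes were higher and 56 lower in GFP-high cells (8.47% and 23.7%), against 5.89% and 11.1% of all genes. In GFP-low cells 16 were higher and 47 lower (6.78% and 19.9%), against 6.41% and 9.04%. Among other long noncoding genes the 2-fold shares were 8.01% higher and 26.4% lower in GFP-high cells. A member can pass the level floor through the groups in which it is high, and 46 of the 236 had at least 1 group mean under 0.5 CPM. They made up 12 of the 60 higher and 22 of the 105 lower calls in GFP-high cells. Changes of such members are given as descriptions, since the groups in which they are high can have decided their choice. With a floor of 1 CPM, 180 genes were left, of which 49 were called higher and 84 lower in GFP-high cells. These are 27.2% and 46.7%, against 33.8% and 34.6% of all tested genes without that floor.

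The FX1 effects in the 2 gates share no library. Of the 236 LINC genes, 43 were called higher and 85 lower in both gates, 42 in neither, 63 in 1 gate alone and 3 in opposite directions. These are 18.2%, 36.0%, 17.8%, 26.7% and 1.27%, against 26.2%, 26.5%, 19.6%, 24.5% and 3.22% of all 17859 tested genes. Across the 236 genes, Pearson's r between both effects was 0.886 and Spearman's rho 0.839, near the 0.829 and 0.806 across all tested genes, as a description: all genes share the same libraries and their depth. LINC00678 and LINC02964 mark the ends of the distribution.

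**Figure D2:**
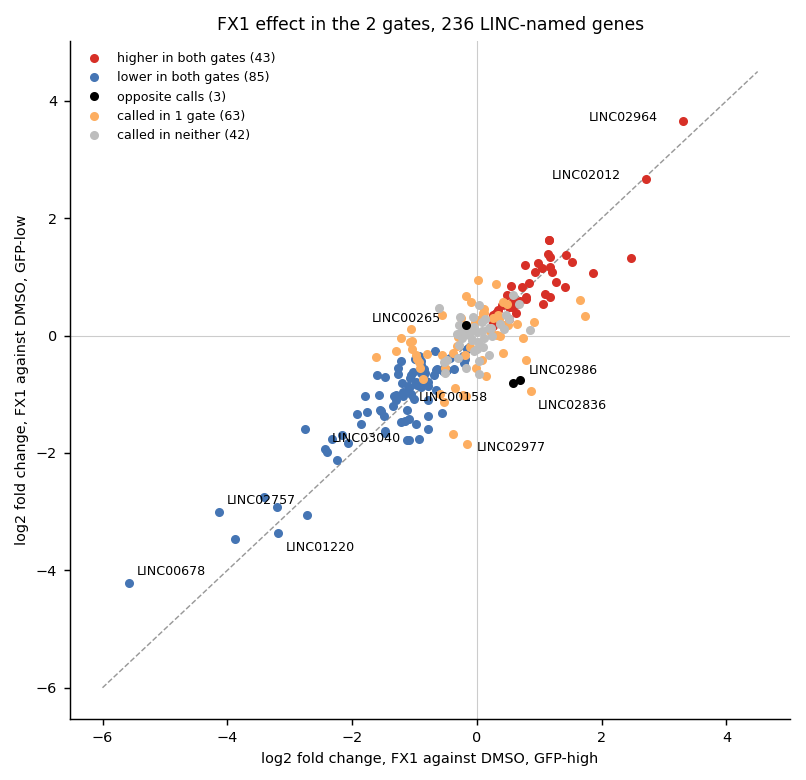
Each point is a LINC-named gene, with its log2 fold change with FX1 in GFP-high cells on the horizontal axis and in GFP-low cells on the vertical axis; colour gives the call in each gate and the dashed line marks equal effects. Most points lie near the line, 85 in blue below 0 and 43 in red above 0 in both gates, and LINC00158 and LINC02986 were called higher in GFP-high and lower in GFP-low cells.

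LINC00678 showed the largest fall. It lies at chr11:27617626-27634627, minus strand, 20266 bases from BDNF, the gene of brain-derived neurotrophic factor, and shares no exonic base with another gene. It measured 16.4, 15.1 and 14.9 CPM in GFP-high DMSO and 0.217, 0.512 and 0.267 with FX1, and 8.23, 7.80 and 8.93 in GFP-low DMSO and 0.599, 0.135 and 0.551 with FX1. The DMSO groups lay far above both FX1 groups and did not overlap each other either, GFP-high being higher. Summed over 3 libraries, the counts were 1199 and 696 with DMSO and 32 and 43 with FX1. The log2 fold change was -5.57 ± 0.17, adjusted p = 9.42e-85 in GFP-high and -4.21 ± 0.18, adjusted p = 1.54e-60 in GFP-low cells. LINC00678 passed the level floor through its DMSO groups, so its fall is a description. BDNF itself did not pass the low-count filter.

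Several of the strongest falls lay beside coding genes that also fell. LINC01220 (chr14:75294404-75298109, plus strand) starts 12174 bases from FOS, the immediate early gene whose protein is part of the AP-1 factor. It measured 1.47, 1.88 and 1.61 CPM in GFP-high DMSO, 0.190, 0.137 and 0.207 with FX1, 1.98, 2.32 and 2.55 in GFP-low DMSO and 0.200, 0.303 and 0.138 with FX1, with no overlap between treatments. The log2 fold changes were -3.18 ± 0.34, adjusted p = 5.65e-17 and -3.36 ± 0.32, adjusted p = 8.17e-21. FOS changed by -4.84 ± 0.07 in GFP-high and -3.61 ± 0.06 in GFP-low cells (log2, both called). LINC01220 passed the level floor through its DMSO groups, with 18 and 21 counts under FX1, so its fall is a description.

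LINC02757 (chr11:76607853-76630465, minus strand) lies 27059 bases from LRRC32, which encodes GARP, a cell-surface carrier of latent TGF-beta. It measured 2.32, 2.50 and 2.17 CPM in GFP-high DMSO and 0.217, 0.0342 and 0.118 with FX1, and 0.898, 1.78 and 1.33 in GFP-low DMSO and 0.178, 0.235 and 0.0459 with FX1. DMSO and FX1 did not overlap, although the FX1 groups rest on 13 and 16 counts in all. The log2 fold changes were -4.13 ± 0.36 and -3.00 ± 0.38, and those of LRRC32 were -4.22 ± 0.10 and -3.86 ± 0.12. Of its exonic bases 14.9% are shared with another gene on the same strand, so its reads are partly uncertain. LINC02757 also passed the level floor through its DMSO groups, so its fall is a description.

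LINC02649 and LINC02656 lie on the same strand of chromosome 10, the second inside the body of the first (chr10:6271169-6353827 and chr10:6350316-6352762, plus strand). LINC02649 starts 16525 bases beyond PFKFB3, a kinase that raises glycolytic flux. It measured 5.36, 4.66 and 5.61 CPM in GFP-high DMSO, 0.516, 0.546 and 0.385 with FX1, 8.48, 7.77 and 8.77 in GFP-low DMSO and 1.47, 1.11 and 0.964 with FX1. Each gate fell without overlap, with log2 changes of -3.42 ± 0.20 and -2.75 ± 0.16, and GFP-low was above GFP-high under both treatments. LINC02656 fell by 2.72 ± 0.34 and 3.05 ± 0.31, and PFKFB3 by -1.67 ± 0.03 and -1.55 ± 0.03 (log2, all called). LINC02656 passed the level floor through its DMSO groups, with 23 and 27 counts under FX1. The mean of LINC02649 in GFP-high FX1 was also under 0.5 CPM, so the falls of both LINC genes are descriptions.

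LINC01754 (chr20:47391925-47412327, minus strand) lies 35036 bases from ZMYND8, a reader of histone marks. Its group means were 11.4 ± 0.665 and 1.23 ± 0.166 CPM in GFP-high DMSO and FX1 and 14.2 ± 0.661 and 1.92 ± 0.281 in GFP-low (SD, n = 3), a log2 fall of 3.21 ± 0.13 and 2.93 ± 0.12. ZMYND8 fell less, by 0.94 ± 0.03 and 0.75 ± 0.03. LINC02909 lies within the body of IRAG2, an endoplasmic reticulum protein gene of lymphocytes, on chromosome 12. It went from 16.3, 16.8 and 15.8 to 4.08, 2.97 and 3.17 CPM in GFP-high and from 12.04, 10.7 and 12.5 to 2.31, 2.59 and 3.49 in GFP-low cells, log2 -2.25 ± 0.10 and -2.12 ± 0.11. IRAG2 fell by 1.57 ± 0.01 and 1.66 ± 0.01, and since the strand setting of the counting is not stated, its unspliced reads and those of LINC02909 cannot be told apart.

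LINC01297 (chr14:19344578-19384587, minus strand) and POTEG, 17899 bases away, lie in a region with near-identical copies elsewhere in the genome, so the assignment of reads to either is uncertain. LINC01297 fell by 3.87 ± 0.54 and 3.47 ± 0.51 on the log2 scale and POTEG by -3.90 ± 0.49 and -3.52 ± 0.45, but the FX1 groups of LINC01297 hold 6 and 8 counts in all. LINC01297 passed the level floor, at a mean of 0.500009 CPM, through its DMSO groups, so its fall is a description. LINC00896 on chromosome 22 fell by 2.75 ± 0.49 and 1.59 ± 0.39, from 0.446, 0.814 and 1.02 CPM in GFP-high DMSO. Its 3 GFP-high FX1 libraries had 0.163, 0.171 and 0 CPM, and it was the only member without a count in some library. LINC00896 passed the level floor through its DMSO groups, with 11 and 32 counts under FX1, so its fall is a description.

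**Figure D3:**
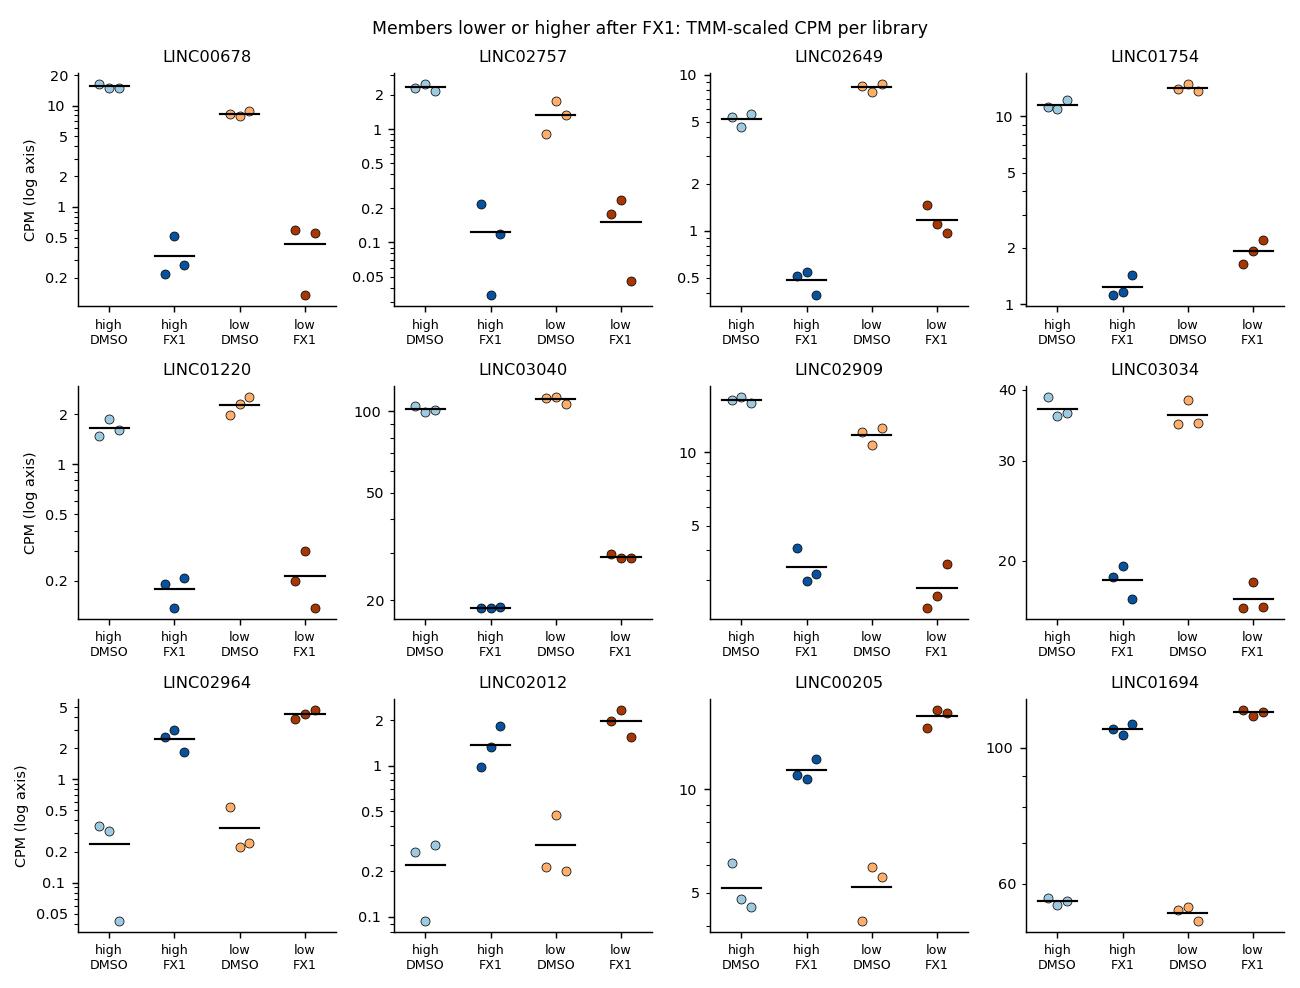
TMM-scaled CPM on a log axis for 12 LINC-named genes in the 4 groups; points are libraries and lines group means. In the 8 genes of the upper rows both FX1 groups lie below both DMSO groups, as LINC00678 at means of 0.332 and 0.428 against 15.4 and 8.32 CPM, and in the 4 genes of the lowest row they lie above.

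Among the members that rose, LINC02964 showed the largest rise in both gates, and its reads are partly uncertain because 3.41% of its exonic bases are shared with LINC00861 on the other strand. It measured 0.357, 0.313 and 0.0425 CPM in GFP-high DMSO, 2.56, 2.97 and 1.84 with FX1, 0.539, 0.222 and 0.242 in GFP-low DMSO and 3.80, 4.31 and 4.73 with FX1. Both FX1 groups lay above all DMSO libraries. The log2 fold changes were 3.30 ± 0.30, adjusted p = 4.68e-22 and 3.65 ± 0.26, adjusted p = 2.06e-32, from 19 and 28 counts in the DMSO groups. LINC02964 passed the level floor through its FX1 groups, so its rise is a description. TRIB1, the nearest coding gene at 209924 bases, fell by 0.99 ± 0.07 and 0.84 ± 0.07.

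LINC02012 (chr3:197505262-197506986, minus strand), 2797 bases from the ketone body enzyme gene BDH1, rose from 0.268, 0.0939 and 0.297 to 0.979, 1.33 and 1.84 CPM in GFP-high cells and from 0.216, 0.476 and 0.202 to 1.98, 2.35 and 1.56 in GFP-low cells. DMSO and FX1 did not overlap in either gate, and the log2 fold changes were 2.71 ± 0.37 and 2.67 ± 0.31. BDH1 changed by 0.15 ± 0.04 and 0.32 ± 0.04. LINC00463, 540 bases from AMER2, rose by 2.48 ± 0.48 and 1.33 ± 0.37, from a mean of 0.125 CPM in GFP-high DMSO. LINC02803 rose by 1.86 ± 0.31 and 1.07 ± 0.29, and LINC01060 by 1.43 ± 0.38 and 1.38 ± 0.35. LINC02012, LINC00463 and LINC01060 passed the level floor through their FX1 groups, so their rises are descriptions. With DMSO they held 16 and 26, 10 and 32, and 26 and 36 counts in GFP-high and GFP-low cells. LINC02803 had a GFP-high DMSO mean under 0.5 CPM, on 31 counts, so its rise is a description too.

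LINC00205, typed as a bidirectional-promoter RNA in GENCODE 29, lies head to head with POFUT2, the gene of a protein O-fucosyltransferase. Their gene bodies lie 152 bases apart on opposite strands of chromosome 21. It measured 6.11, 4.79 and 4.55 CPM in GFP-high DMSO, 11.01, 10.7 and 12.2 with FX1, 4.13, 5.93 and 5.54 in GFP-low DMSO and 15.1, 17.02 and 16.7 with FX1. All groups with FX1 exceeded those with DMSO, and GFP-low FX1 exceeded GFP-high FX1. The log2 fold changes were 1.15 ± 0.10, adjusted p = 9.58e-24 and 1.63 ± 0.09, adjusted p = 6.95e-43, against 0.19 ± 0.07 and 0.56 ± 0.06 for POFUT2. LINC02983, which lies 863 bases from TNRC18 and shares 12.1% of its exonic bases with LINC03073 on the other strand, rose by 1.15 ± 0.45 and 1.63 ± 0.39, and TNRC18 by 0.67 ± 0.02 and 0.93 ± 0.02. LINC01396 rose by 1.52 ± 0.46 and 1.25 ± 0.42 beside MSX1, a homeobox gene, which changed by 0.92 ± 0.42 (adjusted p = 0.0454, edgeR) and 1.51 ± 0.43 (adjusted p = 0.00117, edgeR). MSX1 itself had group means of only 0.251 to 0.704 CPM. LINC01396 and LINC02983 passed the level floor through their FX1 groups, so their rises are descriptions. LINC01396, at a mean of 0.501 CPM, held 18 and 28 counts with DMSO against 66 and 78 with FX1. LINC02983 held 19 and 29 against 55 and 101. LINC00562, inside SUCLA2, and LINC00571, which shares exonic bases with UFM1, rose by 1.14 and 1.17 in GFP-high and 1.38 and 1.34 in GFP-low cells. SUCLA2 was at 0.01 ± 0.03 in GFP-high cells (adjusted p = 0.886, edgeR) and at -0.25 ± 0.03 in GFP-low cells, and UFM1 at 0.10 ± 0.03 and -0.31 ± 0.03. LINC00571 had a GFP-low DMSO mean under 0.5 CPM, on 35 counts, so its rise is a description.

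**Figure D4:**
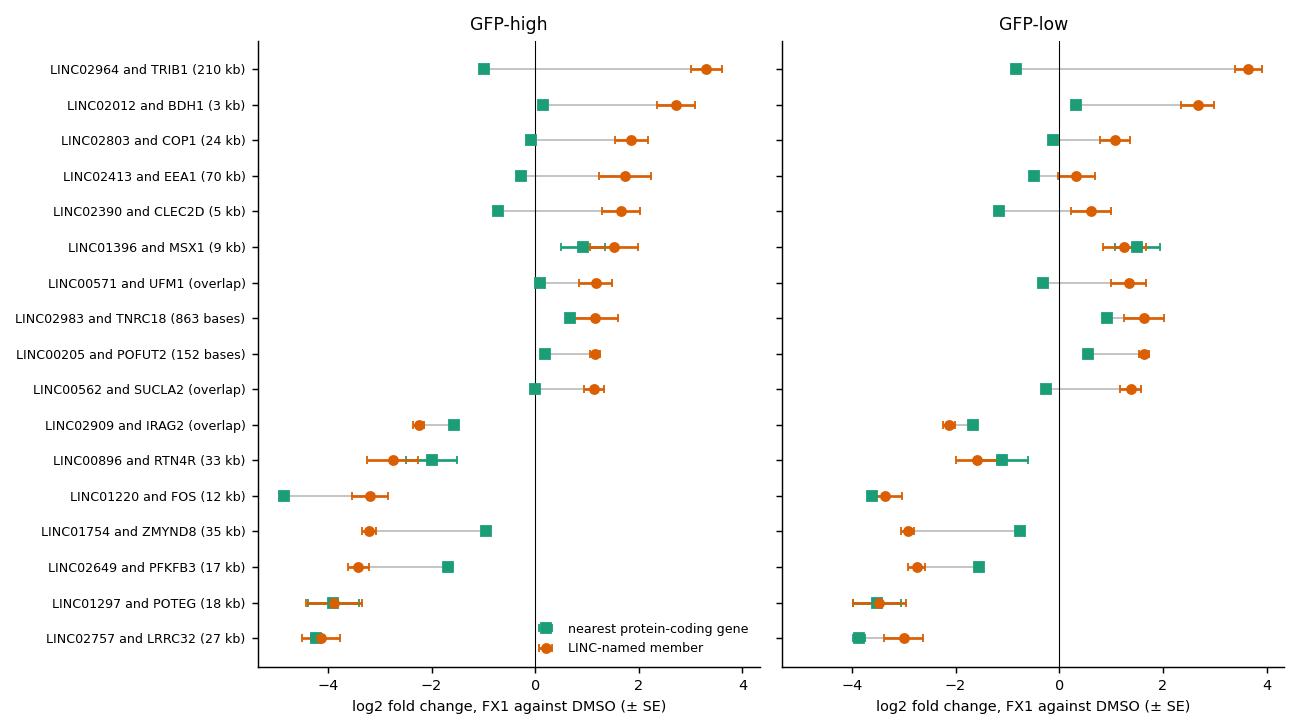
Log2 fold change with FX1 (± SE) of the strongest-changing LINC-named genes (circles) and of the nearest protein-coding gene (squares) in GFP-high and GFP-low cells, with the distance between the gene bodies after each pair. The falling LINC genes stand beside genes that also fell in GFP-high cells, as LINC01220 at -3.18 and FOS at -4.84, and the rising ones beside genes that moved either way.

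The pairs shown were picked for the size of the LINC gene's change. Of all 176 members with a tested nearest coding gene, 103 were called together with that gene in GFP-high cells and 61 of these went the same way, and in GFP-low cells 65 of 100 did. These shares, 59.2% and 65.0%, were near those of all 13765 tested genes with a tested nearest coding gene, 59.5% and 65.8%. Spearman's rho across the 176 pairs was 0.22 in GFP-high and 0.30 in GFP-low cells, against 0.18 and 0.28 over all such genes. These are descriptions across genes, which share libraries.

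The RefSeq promoter table (GRCh38.p14, 250 bases before to 50 after a start) held a window for 153 of the 236 members, of which 112 started within 1000 bases of the start in the count table. Of the members with the largest changes, the windows of LINC01220, LINC02656 and LINC00463 are shown, because they hold matches to the motifs searched. The window of LINC01297 held none. Another 7 members ranked before the last one shown had no window or were left out for their location. The windows shown thus cover only part of the largest changes and do not tell how common the motifs are among them. Capitals mark matches on either strand to TGACNNNGC (the antioxidant response element core) and ACGTG (the hypoxia element), or to CACGTG (the E-box), which contains ACGTG. LINC01220 and LINC02656 fell and LINC00463 rose. They lie at chr14:75294154-75294453 (plus strand), chr10:6350066-6350365 (plus) and chr13:25179952-25180251 (minus).
LINC01220: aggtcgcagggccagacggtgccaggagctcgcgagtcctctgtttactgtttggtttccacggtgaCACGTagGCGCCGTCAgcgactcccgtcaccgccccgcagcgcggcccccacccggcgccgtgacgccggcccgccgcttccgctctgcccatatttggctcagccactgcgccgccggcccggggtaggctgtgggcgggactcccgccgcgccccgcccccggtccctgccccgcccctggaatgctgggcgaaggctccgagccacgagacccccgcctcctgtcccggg
LINC02656: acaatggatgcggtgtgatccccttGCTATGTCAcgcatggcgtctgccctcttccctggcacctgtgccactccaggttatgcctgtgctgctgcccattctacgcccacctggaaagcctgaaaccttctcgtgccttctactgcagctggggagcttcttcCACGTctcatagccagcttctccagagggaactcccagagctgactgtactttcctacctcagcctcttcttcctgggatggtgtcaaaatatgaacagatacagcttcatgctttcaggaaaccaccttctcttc
LINC00463: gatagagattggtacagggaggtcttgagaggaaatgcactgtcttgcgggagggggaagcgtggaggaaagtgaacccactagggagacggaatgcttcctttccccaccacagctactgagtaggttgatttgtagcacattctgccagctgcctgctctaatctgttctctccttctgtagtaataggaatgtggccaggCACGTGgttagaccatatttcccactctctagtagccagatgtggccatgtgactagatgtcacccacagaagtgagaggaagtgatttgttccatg
In the LINC01220 window the matches begin 183 (ACGTG) and 176 bases (TGACNNNGC) before the start, both read from the other strand. In LINC02656 they begin 225 (TGACNNNGC) and 86 bases (ACGTG) before the start, and both are again read from the other strand. In LINC00463 the E-box, which reads the same on both strands, begins 47 bases before the start.

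Searched on both strands, TGACNNNGC occurred in 34 of the 153 member windows (22.2%) against 13.6% of all 27305 windows in the table. ACGTG occurred in 40 (26.1% against 21.6%), CACGTG in 13 (8.50% against 7.43%), the AP-1 motif TGANTCA in 16 (10.5% against 7.76%) and TTCCTNGAA, a BCL6-type site, in 3 (1.96% against 1.61%). Of the 29 windows of members called higher in both gates, 9 held TGACNNNGC, 9 ACGTG, 2 CACGTG, 0 TGANTCA and 0 TTCCTNGAA. Of the 59 windows of members called lower in both, 11, 17, 8, 4 and 2 did. A match is a description of letters in this window and not a bound site.

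By position, each member was put in the first class that matched. Of the 236, 74 shared exonic bases with another gene and 14 lay head to head with a coding gene, with starts within 1 kb. Another 6 overlapped a coding gene's body without shared exons. The other 142 are called standing apart, although they can overlap the body of a noncoding gene, as LINC02649 and LINC02656 do. Counted in any class, 18 members lay head to head. Under FX1 in GFP-high cells, 31 of those standing apart were higher and 70 lower (median log2 -0.31), while those that share exonic bases had 24 higher and 24 lower (median 0.00). Those standing apart had 21.8% higher and 49.3% lower, those that share exonic bases 32.4% and 32.4%, and all tested genes 33.8% and 34.6%. In GFP-low cells the counts were 28 and 70 (median -0.41) against 27 and 23 (median 0.08), or 19.7% and 49.3% against 36.5% and 31.1%, with 33.7% and 34.3% of all tested genes. The difference between these arrangements was not tested. Among all 162 members without shared exonic bases, 36 were higher and 81 lower in GFP-high cells.

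Of the 14 head-to-head members, 3 were higher and 8 lower with FX1 in GFP-high cells (median -0.95), and 3 and 5 in GFP-low cells (median -0.28). The same 33.8% and 34.6%, and 33.7% and 34.3%, of all tested genes apply, and the gates were not compared over this group. LINC00205 with POFUT2, LINC01134 with C1orf174 and LINC02245 with CEP68 were the 3 that rose. LINC01126, head to head with ZFP36L2, a gene for an RNA-decay factor, fell by 1.27 ± 0.19 and 0.66 ± 0.17. LINC01560, head to head with ZNF41, fell by 1.30 ± 0.23 and 1.004 ± 0.22, and LINC00235, head to head with CAPN15, fell by 0.99 ± 0.14 and 0.40 ± 0.13.

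The comparison of gates asks what goes with low GFP at the same treatment. With DMSO, 51 LINC genes were higher in GFP-low cells and 21 lower (21.6% and 8.90%), against 21.7% and 24.4% of all genes. The share called higher was near the background. Among tested genes with a mean of at least 0.5 CPM, 24.1% were higher and 27.8% lower. Other long noncoding genes had 13.9% higher and 5.61% lower, and protein-coding genes 25.4% and 33.0%. The median log2 difference was 0.11 for the LINC genes, 0.12 for other long noncoding genes and 0.03 for all. With FX1, 74 were higher and 39 lower (31.4% and 16.5%), against 30.2% and 26.7%. At 2-fold or more, 8 were higher and 2 lower with DMSO (2.09% and 1.21% of all genes), and 9 and 8 with FX1 (3.76% and 1.21%).

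Among the members, GC content went with the gate difference. Across the 234 members with a GC value, Spearman's rho between GC content and the log2 difference of GFP-low from GFP-high was 0.16 with DMSO and 0.46 with FX1, against -0.18 and 0.01 for the FX1 effect in GFP-high and GFP-low cells. Once each library's trend with GC content and gene length was taken out, 76 members were higher and 27 lower in the FX1 comparison of gates. Only 57 of these 76 and 23 of these 27 were among the 74 and 39 called without that step. With the replicate number as a block as well, 73 were higher and 25 lower (10.7%).

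LINC00426 (chr13:30340267-30377145, minus strand) was higher in GFP-low cells under both treatments. It measured 29.6, 30.9 and 31.7 CPM in GFP-high DMSO and 52.2, 51.4 and 50.8 in GFP-low DMSO. With FX1 it measured 16.1, 17.2 and 16.3 in GFP-high and 34.2, 33.2 and 31.7 in GFP-low cells. GFP-low exceeded GFP-high without overlap, and within each gate FX1 lay below DMSO. The gate differences were log2 0.74 ± 0.05, adjusted p = 4.31e-37 with DMSO and 1.01 ± 0.05, adjusted p = 1.23e-48 with FX1. KATNAL1, 32716 bases away, differed by -0.01 ± 0.05 and -0.21 ± 0.05.

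LINC01234 (chr12:113583886-113773726, minus strand) measured 0.848, 1.38 and 1.06 CPM in GFP-high DMSO, 2.30, 2.47 and 2.79 in GFP-low DMSO, 0.951, 0.991 and 0.829 in GFP-high FX1 and 2.997, 3.13 and 2.34 in GFP-low FX1. All GFP-low libraries lay above all GFP-high libraries. The log2 differences were 1.16 ± 0.22, adjusted p = 1.1e-06 and 1.63 ± 0.21, adjusted p = 7.02e-13, and neither FX1 comparison was called. LINC02763 on chromosome 11 had the same shape at a lower level, with log2 differences of 1.41 ± 0.39 and 1.74 ± 0.38. It held 27 and 28 counts in GFP-high DMSO and FX1 against 79 and 89 in GFP-low. LINC02763 thus passed the level floor through its GFP-low groups, so its gate difference is a description. LINC02614, which shares 8.33% of its exonic bases with a gene on the same strand, was higher in GFP-low cells by 0.78 ± 0.27 and 1.36 ± 0.26, and LINC01088, head to head with PAQR3, by 0.49 ± 0.16 and 1.07 ± 0.17.

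Fewer members were lower in GFP-low cells. LINC02227 (chr5:158320683-158409773, minus strand) lies 286143 bases from EBF1, the gene of a B-cell lineage factor. It measured 11.9, 12.3 and 12.5 CPM in GFP-high DMSO, 6.68, 7.42 and 8.28 in GFP-low DMSO, 6.09, 5.94 and 5.54 in GFP-high FX1 and 4.195, 3.46 and 3.21 in GFP-low FX1. GFP-low was below GFP-high and FX1 below DMSO without overlap, with log2 differences of -0.72 ± 0.10 and -0.66 ± 0.12 between gates and -1.06 ± 0.10 and -0.9998 ± 0.12 with FX1. EBF1 differed between gates by 0.03 ± 0.03 with DMSO and -0.26 ± 0.03 with FX1.

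LINC01991 (chr3:187958775-187976407, minus strand) had means of 3.72 ± 0.414 and 4.34 ± 1.23 CPM in GFP-high DMSO and FX1 and 1.88 ± 0.494 and 1.98 ± 0.406 in GFP-low (SD, n = 3). Each GFP-low library lay below each GFP-high library, by log2 -1.02 ± 0.18, adjusted p = 2.69e-07 with DMSO and -1.08 ± 0.16, adjusted p = 1.5e-09 with FX1, and FX1 was not called in either gate (0.20 ± 0.15 and 0.13 ± 0.19). LPP, its nearest coding gene, is 176877 bases away, and BCL6 itself lies 213050 bases away on the other side. BCL6 was looked at after these values were seen. Its RNA fell with FX1, with log2 changes of -1.01 ± 0.02 in GFP-high and -0.64 ± 0.02 in GFP-low cells, and differed in GFP-low from GFP-high cells by -0.24 ± 0.02 with DMSO and 0.13 ± 0.02 with FX1.

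Whether FX1 acts differently in the 2 gates was tested directly as the difference of its effects. It was called for 45 LINC genes, with the effect more positive in GFP-low cells for 26 and more negative for 19 (11.0% and 8.05%), against 14.8% and 16.5% of all genes. With mitochondrial and the most abundant genes left out before scaling, the split was 18 and 26 (7.63% and 11.0%). The shares of all genes under this and the following alternatives are not given here. The more positive set shrank to 13 genes without the first GFP-high DMSO library, to 17 without the second or the third, and to 17 without the first GFP-low FX1 library.

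LINC00158 (chr21:25385388-25431701, minus strand) changed in opposite directions. It measured 12.7, 13.7 and 14.5 CPM in GFP-high DMSO and 21.6, 19.2 and 20.1 with FX1, but 13.8, 12.8 and 15.1 in GFP-low DMSO and 6.35, 8.38 and 9.92 with FX1. The DMSO groups overlapped, GFP-high FX1 lay above them and GFP-low FX1 below. The log2 fold changes with FX1 were 0.58 ± 0.08 and -0.81 ± 0.09, and their difference was -1.39 ± 0.12, adjusted p = 1.9e-19. Its nearest coding gene, MRPL39, fell in both gates. MIR155HG, the host gene of the B-cell microRNA miR-155, lies 130208 bases from LINC00158 and was set beside it after the values were seen. MIR155HG measured 21.5, 21.7 and 24.6 CPM in GFP-high DMSO, 46.8, 43.4 and 44.6 with FX1, 23.5, 22.9 and 20.6 in GFP-low DMSO and 17.3, 21.0 and 19.1 with FX1. Its log2 fold changes were 1.00 ± 0.05 and -0.24 ± 0.06, with a difference of -1.24 ± 0.08 (adjusted p = 8.3e-35, edgeR).

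LINC02986 had the same order of signs. It measured 2.10, 2.22 and 2.93 CPM in GFP-high DMSO, 4.21, 3.86 and 3.53 with FX1, 4.06, 3.30 and 4.32 in GFP-low DMSO and 2.24, 2.39 and 2.30 with FX1. GFP-high rose and GFP-low fell without overlap, by 0.69 ± 0.16 and -0.75 ± 0.16, and the difference was -1.43 ± 0.23, adjusted p = 1.74e-08. LINC00265 was the third member with opposite calls, at -0.18 ± 0.07 and 0.18 ± 0.06, both small.

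Several other members with unequal responses kept the call in every alternative that gave a value. LINC02541 was at 9.88 ± 0.714, 8.80 ± 0.661 and 8.64 ± 0.394 CPM in GFP-high DMSO, GFP-high FX1 and GFP-low DMSO and at 4.22 ± 0.163 in GFP-low FX1 (SD, n = 3). The last group stood alone, with a difference of -0.85 ± 0.14, adjusted p = 8.37e-08. LINC00378 fell in both gates but further in GFP-low cells (-0.93 against -1.77, difference -0.84 ± 0.21), as did LINC01344 (-0.55 against -1.33). LINC00173 measured 9.95, 9.26 and 9.64 CPM in GFP-high DMSO and 4.21, 4.34 and 3.82 with FX1, and 12.1, 10.4 and 8.97 in GFP-low DMSO and 7.55, 8.61 and 7.16 with FX1. It fell in both gates without overlap but less in GFP-low cells, with a difference of 0.78 ± 0.14, adjusted p = 1.2e-06. LINC00921 was lower with FX1 in GFP-high cells (-0.56) and at 0.34 (adjusted p = 0.0522, edgeR) in GFP-low cells, a difference of 0.90 ± 0.24, but 84 of its exonic bases are shared with ZNF263 on the same strand. LINC02836 differed by -1.82 ± 0.55, on 24 to 81 counts a group. Its GFP-high DMSO mean was under 0.5 CPM, so this difference is a description.

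**Figure D5:**
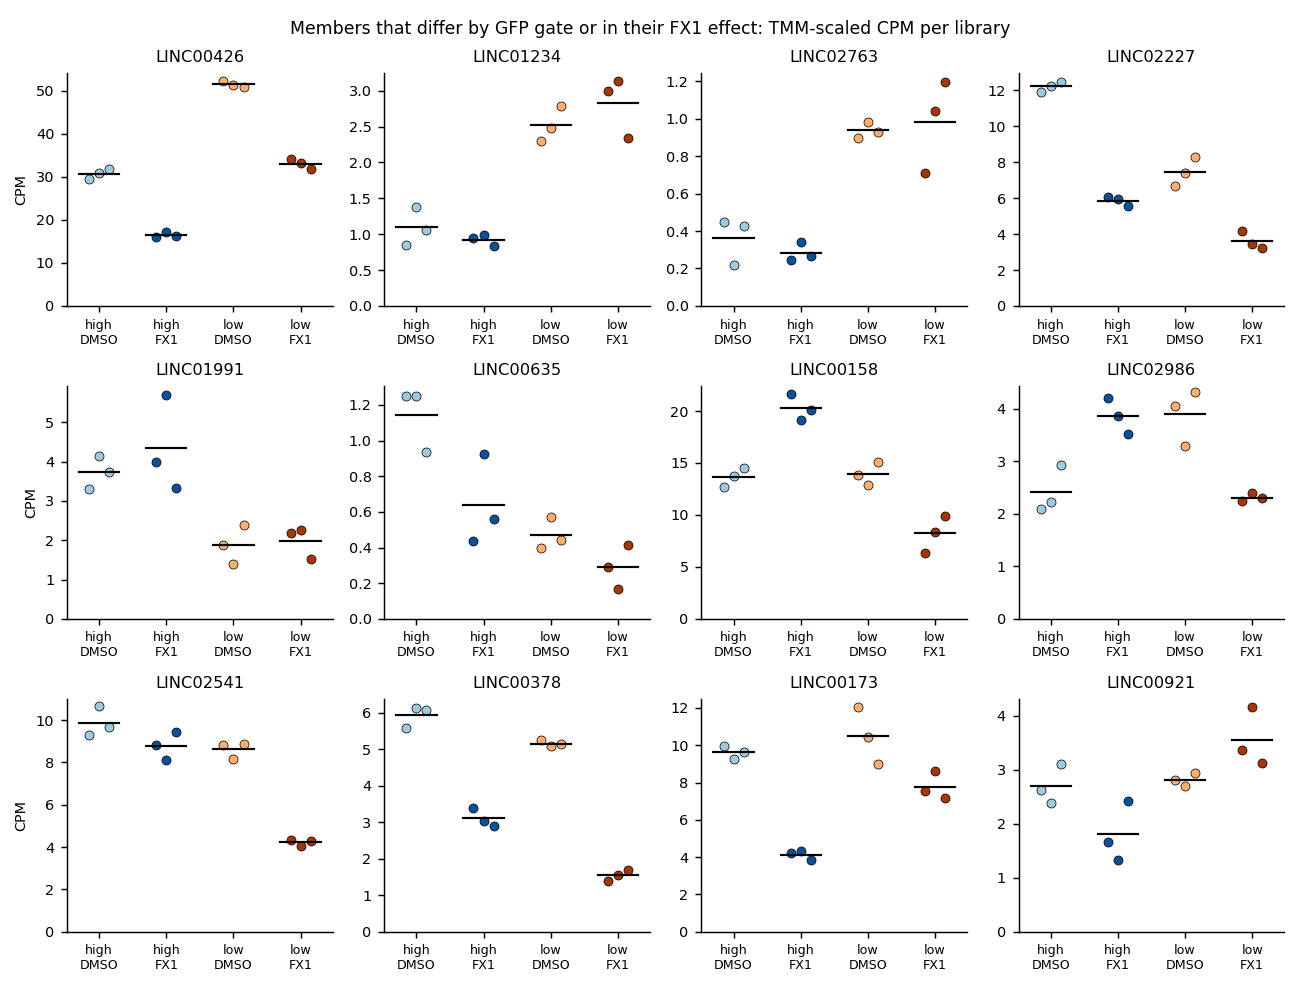
TMM-scaled CPM on a linear axis from 0 for 12 LINC-named genes in the 4 groups; points are libraries and lines group means. LINC00426, LINC01234 and LINC02763 are higher in GFP-low cells under both treatments, and LINC00158 has GFP-high FX1 at a mean of 20.3 CPM above both DMSO groups and GFP-low FX1 at 8.21 below them. LINC02763 passed the level floor through its GFP-low groups.

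Other named long noncoding RNAs give the setting. Of 24 tested on a list of 25, 7 rose and 13 fell with FX1 in GFP-high cells and 9 rose and 13 fell in GFP-low cells, with medians of -0.22 and -0.19. All tested genes had 33.8% higher and 34.6% lower in GFP-high cells and 33.7% and 34.3% in GFP-low cells. LUCAT1, a stress-induced RNA, rose by 2.63 and 2.91 on the log2 scale, MIR22HG by 1.45 in both gates and CYTOR by 1.03 and 0.89. HCP5 fell by 1.48 and 1.75, DLEU2, the host of miR-15a and miR-16-1, by 0.93 and 1.17, and MIR17HG, the host of the miR-17-92 cluster, by 0.94 and 0.85. NEAT1, the scaffold of paraspeckles, changed by -0.55 in GFP-high and 0.48 in GFP-low cells.

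Genes for the machinery that removes noncoding RNA went both ways under FX1. Of 24 genes of the RNA exosome and its nuclear cofactors, 11 were higher and 10 lower in GFP-high cells and 10 and 11 in GFP-low cells, with medians of 0.04 and -0.02. Between gates, 1 was higher and 15 lower in GFP-low cells with DMSO, and 4 and 14 with FX1 (medians -0.14 and -0.20), where all tested genes had 21.7% higher and 24.4% lower with DMSO and 30.2% and 26.7% with FX1. DIS3, the exosome's processive nuclease, differed between gates by -0.42 and -0.43, MTREX, its helicase, by -0.32 and -0.32, and EXOSC9 by -0.39 and -0.44. Of 15 subunits of Integrator, which ends transcription at many noncoding genes, 10 were higher and 5 lower with FX1 in GFP-high cells and 9 and 5 in GFP-low cells. With FX1, 33.8% of all tested genes were higher and 34.6% lower in GFP-high cells, and 33.7% and 34.3% in GFP-low cells. The part of these genes in the levels of the LINC genes was not tested.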

How the data were processed

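RNA was sequenced from 12 libraries of Raji cells, 3 in each of 4 groups, from total RNA depleted of ribosomal RNA, per the labels' protocols. The authors deposited whole-number read counts per gene, unnormalized and summed over merged exons, per the file headers, and FastQC, STAR, featureCounts of Subread and R 4.2.1 were used on hg38, per the submitters' processing notes. Tool versions other than R, annotation release and strand setting are not given in the sources used here, so overlapping genes are uncertain. Of 60710 lines, 3 that form a broken record were left out, and 60506 of 60707 genes (99.7%) had a symbol. Count columns without a sample numbered 0.

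Genes kept by filterByExpr were tested with edgeR 4.0.16 (R 4.3.3), TMM scaling and a robust quasi-likelihood fit of 4 group means to all 12 libraries (8 residual degrees of freedom), with Benjamini-Hochberg adjustment over 17859 genes, called under 0.05. Errors of log2 fold changes are standard errors of the fit. Gene types and GC content came from GENCODE 29, promoters from RefSeq. Since no molecular identifiers are mentioned, PCR copies may be counted more than once.

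Libraries of a group differed by 1.67 to 1.94 times sampling noise and were counted singly. Libraries with the same replicate number did not deviate together (r between -0.04 and 0.02), so the numbers were not used as pairs.

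The members and gene lists were chosen with earlier results of these data known. Members to name were drawn from the 10 highest per kb and the genes next to the floor. They were also drawn from up to 8 largest rises and 8 largest falls per group comparison, among called members whose groups do not overlap. For the difference of FX1 effects, up to 8 in each direction were drawn. Not all of these are described. The largest rise and fall in GFP-low cells with DMSO, LINC02413 (log2 2.09) and LINC00635 (-1.27), are examples. Members named for another reason (head to head, opposite calls) and the genes BCL6 and MIR155HG were picked after their values were seen. Alternatives were DESeq2 1.42.0 and its size factors, 2 other count filters, only the groups compared, the replicate block, other scaling, removal of a GC and length trend, a 1 CPM floor, members without shared exons, and leaving out each library.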

Additional observations from a re-analysis of the deposited data

Results flagged for a closer look

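For 45 members the FX1 effect differed between the gates by a test of the difference itself (edgeR, adjusted over all genes), and the 8 with the largest differences in each direction are given here. The values are the log2 effect in GFP-low minus that in GFP-high cells. The difference was 1.36 for LINC00678, 1.25 for LINC01353, 1.17 for LINC02870, 1.04 for LINC02709, 0.94 for LINC00511, 0.90 for LINC00921, 0.78 for LINC00173 and 0.76 for LINC01311. It was -1.82 for LINC02836, -1.69 for LINC02977, -1.43 for LINC02986, -1.39 for LINC00158, -1.29 for LINC00504, -0.85 for LINC02541, -0.84 for LINC00378 and -0.78 for LINC01344.

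Of these, 8 lost the call in some alternative. For LINC00678 the adjusted p rose from 0.00169 to 0.207 without the first GFP-low FX1 library, and for LINC02977 to 0.0574 without the third GFP-low DMSO library. LINC01353 reached 0.0755 without the first GFP-high DMSO, 0.0705 without the second GFP-high FX1 and 0.089 without the first GFP-low FX1 library. LINC02870 reached 0.053, 0.062 and 0.114 without the first GFP-high DMSO, the first GFP-high FX1 and the second GFP-low FX1 library. LINC00511 reached 0.0856, 0.148 and 0.187 without the second GFP-high DMSO, the second GFP-low DMSO and the first GFP-low FX1 library, and 0.0739 with DESeq2. LINC01311 reached 0.0897, 0.0912, 0.0576 and 0.170 without the first GFP-high DMSO, the second GFP-high FX1, the third GFP-high FX1 and the first GFP-low FX1 library. LINC00504 and LINC02709 lost it in more settings, up to 0.214 (without the second GFP-high FX1 library) and 0.128 (without the first GFP-low DMSO library). The 8 others kept the call in every alternative that gave a value.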

How the results depend on the processing

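The counts of called members were recomputed under alternatives that keep all libraries and without each library in turn. Of 228 such shares, 221 stayed within 1.5 times the reported share. This compares the size of a share and not which members were called. With the GC and length trend removed, 96 of 99 members lower with FX1 in GFP-high cells were among the reported 105. Of the 20 with a more positive FX1 effect in GFP-low cells, 15 were among the reported 26. Among the 162 members without shared exonic bases, fewer by construction, 36 were higher with FX1 in GFP-high and 32 in GFP-low cells and 17 had a more positive FX1 effect in GFP-low cells, against 60, 59 and 26 of all 236. The exceptions concern the difference of FX1 effects, whose share of more positive members was 6.78% with DESeq2 and 17.7% with at least 50 counts in 3 libraries (164 members tested), and ranged from 5.51% to 11.4% when a library was left out, against 11.0% reported. They also concern the share lower in GFP-low cells under FX1, which was 10.7% with the GC and length trend removed and a replicate block, against 16.5%. The cause was not tested. The share called lower with FX1 ranged from 41.9% to 44.5% in GFP-high and 40.3% to 46.2% in GFP-low cells when a library was left out. With the replicate block alone, 59 members were higher and 105 lower with FX1 in GFP-high cells, and no share left the 1.5-fold range.

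For 80 pairs of a named member and a comparison, 1556 of 1619 values under alternatives kept direction and call, 63 kept the direction without the call, and 0 reversed. Of the gate differences, those of LINC00463, LINC01719, LINC00511 and LINC02757 with DMSO were lost without some library. With FX1, those of LINC00896, LINC01058, LINC02977, LINC00635 and LINC02967 were. Once the GC and length trend was removed, those of LINC01222 and LINC00896 with FX1 and of LINC01719 with DMSO were lost. Depth limits members near the floor, such as LINC01297 with 6 and 8 counts in all in its FX1 groups.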
